A study of Mus musculus with 8 samples.

Results

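Mouse zygotes injected with Trim21 mRNA together with an anti-COPS3 antibody, here the full treatment, were compared with non-manipulated embryos at the late 2-cell stage. The comparison used 4 of the 8 pools in the series, 2 for each group, and every gene the array could name: 30701 genes, each represented by 1 of 65956 deposited transcript clusters. All embryos came from B6C3F1 x CD1 matings after a cycle stimulated with PMSG and hCG, 10 IU of each, given 48 h apart. The labels place them at Theiler stage 2, 1 dpc, with 24 h of in vitro culture, while the protocol gives 28 h of culture after injection. Non-manipulated zygotes stayed in the incubator, whereas treated zygotes were injected into the ooplasm with Trim21 mRNA and an AbCam antibody. The other 4 pools, 2 with Trim21 mRNA and 2 with the antibody alone, entered the fit and are given beside the results. Each pool held the RNA of 100 embryos, amplified to cDNA and hybridised to 1 array. The labels describe cleavage to 2 cells as normal in the non-manipulated and Trim21 mRNA groups, and as stunted, with many undivided zygotes, in both antibody groups. In such pools a different share of undivided zygotes and a different amount of RNA per embryo cannot be told apart.

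Trim21 is a ubiquitin ligase that binds the constant part of antibodies. Supplied as mRNA with an antibody, it directs the antibody's target protein to the proteasome, a method known as Trim-Away. COPS3 belongs to the COP9 signalosome, an enzyme complex that takes NEDD8 off cullins and so controls the cycle of cullin-RING ubiquitin ligases. The late 2-cell stage is when the mouse embryo's own genome is switched on in bulk: transcripts stored by the oocyte are cleared, a short burst of 2-cell genes such as Zscan4 comes and goes, and genes for ribosome production and growth rise.

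The 4 groups were handled on different days within 1 week, with both pools of a group from the same day, so day and treatment cannot be told apart. Nothing in the labels says that the pools of a group came from separate females, and p-values measure the spread between pools of 1 day, which may be technical. No group received a control antibody, and non-manipulated embryos were also not injected, so loss of COPS3, the antibody itself, the mRNA and the injection enter this comparison together. The pools of a group correlated across genes, which are not independent replicates, at 0.986 for the full treatment, 0.997 for non-manipulated embryos, 0.996 for Trim21 mRNA and 0.956 for the antibody by itself. Antibody-alone pools stood apart from each other, with 4615 genes over 2-fold apart, against 49 (non-manipulated), 97 (Trim21 mRNA) and 809 (full treatment). The full-treatment arrays had a higher median (5.15 and 5.29 against 4.75 and 4.77 over all clusters) and a narrower spread (SD 2.38 and 2.27 against 2.71 for both) than the non-manipulated arrays. On them 169 and 151 clusters held the array's highest value, as did 136 on antibody-alone replicate 1 and 1 on each other array. The number of arrays, 2 a group, limits the precision.

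Trim21 itself, the check on the injected mRNA, was listed at log2 levels of 6.27 and 5.65 in the non-manipulated pools and at 10.40 and 10.30 in the full treatment. The groups did not overlap, and the difference was 4.39 ± 0.26 (log2 difference ± standard error of the limma fit, n = 2 pools a group, as in all differences below; adjusted p = 9.1e-05), or 21.0-fold. The pools with Trim21 mRNA stood at 9.77 and 10.14, and those with antibody alone at 6.76 and 6.37. Trim21 was thus high in both groups whose labels name the mRNA and low in both others.

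The full treatment came with a broad change of the transcriptome, in which most measured genes for making ribosomes fell. Of 54 spliceosome and hnRNP genes 43 fell (28 after quantile normalization, described below). Of 72 nuclear oxidative phosphorylation genes 48 fell (30 after that step). As deposited, the share that fell was 47.5% for protein-coding genes with a mean level of 8 or more. All 6 measured Zscan4 genes rose, as did 36 of 76 maternal genes. Of 955 small nucleolar RNA genes 276 rose (28.9%), and of 914 small nuclear RNA genes 244 (26.7%). As deposited these 2 shares were near the 28.3% of olfactory receptor genes, which lie at the low end of the arrays. After quantile normalization 205 of the 955 (median 0.23) and 200 of the 914 (median 0.66) were higher. For 1088 olfactory receptor genes that count was 103 (median 0.24). Of 30701 genes, 9742 (31.7%) passed an adjusted p under 0.05 in limma, 4646 higher (15.1%) and 5096 lower (16.6%). Falls were larger than rises: 4137 called genes were at least 2-fold lower and 1938 at least 2-fold higher, and at 16-fold the counts were 241 and 27. The median over all genes was 0.24, and with arrays centred at their medians 25.4% of the calls were higher in place of 47.7%. Of the 17131 genes with an ordinary name (no small RNA, receptor family, pseudogene or clone name), 2024 (11.8%) rose and 3506 (20.5%) fell.

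The size of these counts depended on single libraries. Without non-manipulated replicate 1 or 2, 863 and 847 genes were higher and 3071 and 3127 lower, and without full-treatment replicate 2 the counts were 1787 and 3627. Without either antibody-alone pool, or both, 10509 were higher and 7029 lower, since those pools widen the spread shared by all groups.

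Differences followed the level of the gene on the array. The class at 4 to 5 (mean log2 level over the arrays) differed by a median of 0.45, with 20.4% called higher and 0.22% lower. Genes at 8 to 10 had a median of −0.76 and 44.6% called lower, and those at 14 or more a median of −1.34 and 61.0% called lower. After quantile normalization, which gives all arrays 1 distribution, the medians of all level classes lay between −0.25 and 0.07. Gene groups below are therefore given with their medians after quantile normalization. Their counts should be read against these classes in the same scaling. After quantile normalization 24.6% of genes at 8 to 10 were called higher and 26.5% lower. At 10 to 12 these shares were 30.6% and 31.6%. Over all genes 3837 were then higher and 3925 lower.

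**Figure D1:**
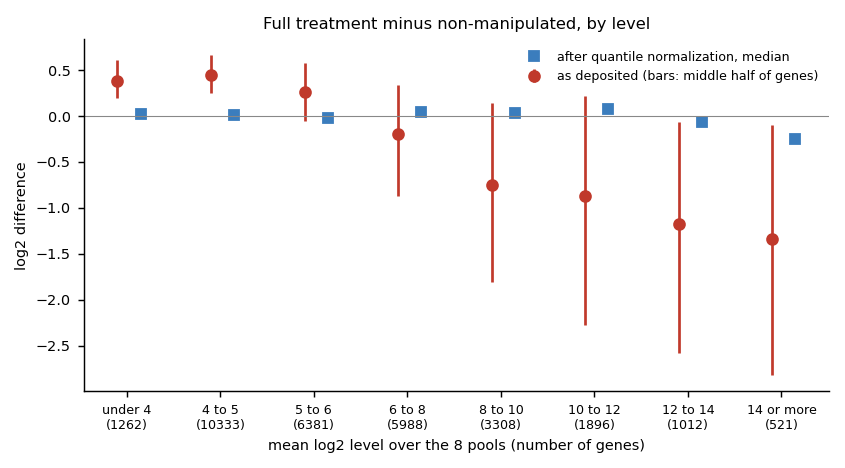
Median log2 difference, full treatment minus non-manipulated, of genes in 8 classes of mean log2 level (x axis, with the number of genes), as deposited (red, bars from the lower to the upper quartile) and after quantile normalization (blue). As deposited the median goes from 0.45 at a level of 4 to 5 to −1.34 at 14 or more, and after quantile normalization it stays between −0.25 and 0.07.

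Genes that build ribosomes formed the group with the largest fall. Of 50 measured genes of the small-subunit processome, which cuts and folds the precursor of 18S ribosomal RNA, 47 fell, against 16.6% of all genes, with a median of −2.88 (−2.01 after quantile normalization, with 45 lower). Of 52 genes of large-subunit assembly 50 fell (median −2.52; −1.76 and 41 lower after quantile normalization). All 16 measured genes of RNA polymerase I and its factors, which transcribe ribosomal DNA, fell (median −2.58; −1.80 and 13), as did all 14 protein genes of the small nucleolar ribonucleoproteins that modify ribosomal RNA (median −2.08; −1.21 and 11). Among protein-coding genes with a mean level of 8 or more, 47.5% fell as deposited.

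**Figure D2:**
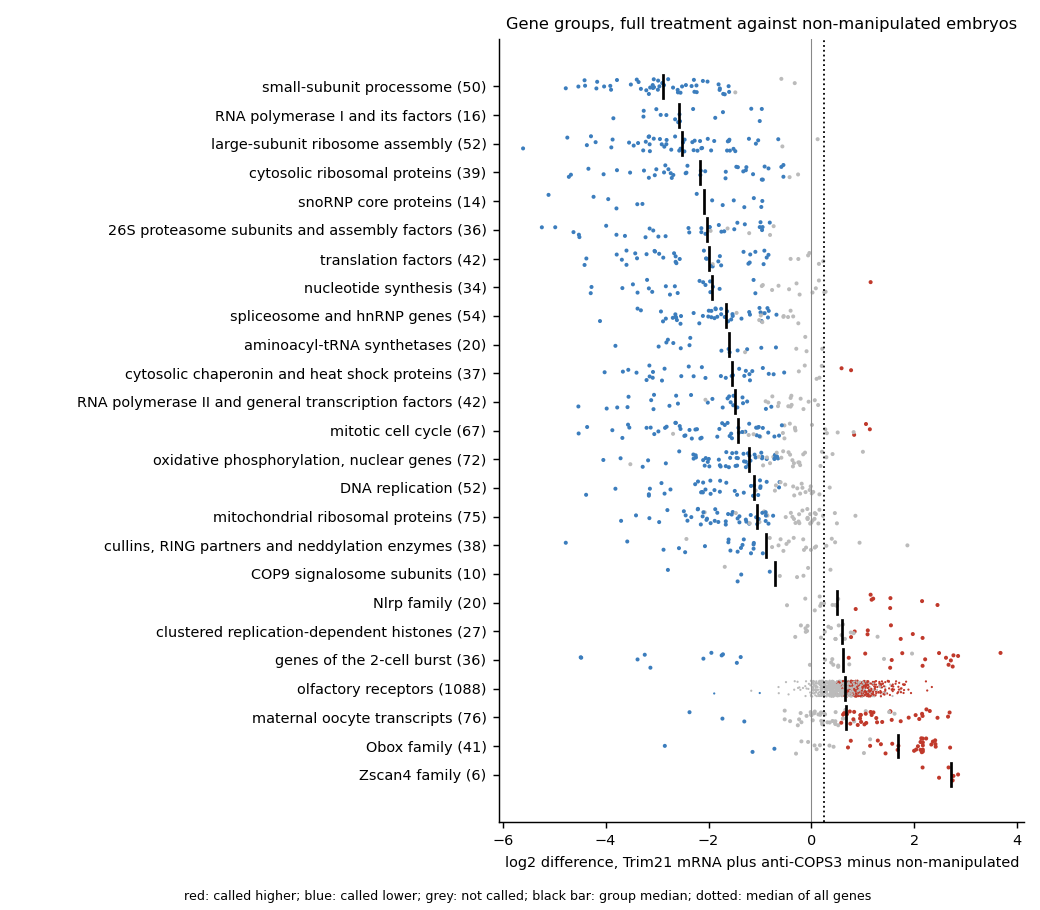
Log2 difference, full treatment minus non-manipulated, of the measured members of 25 gene groups (points, with the number of members in parentheses). Blue points were called lower, red points higher and grey points neither, the black bars are group medians, and the dotted line is the median of all genes, 0.24. The small-subunit processome lies lowest, with a median of −2.88, and the Zscan4 family highest, with 2.70.

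Wdr74, a factor of large-subunit maturation that is needed in preimplantation embryos, stood at 14.64 and 14.48 in non-manipulated pools and at 8.81 and 9.10 after full treatment. Its difference of −5.61 ± 0.35 (adjusted p = 0.0001), 48.7-fold, was the largest of this group. The RNA helicase Ddx21, which acts in ribosomal RNA synthesis, went from 13.63 and 13.52 to 8.47 and 8.23 (−5.22 ± 0.40, adjusted p = 0.0002). For both genes all 6 other pools were above the full-treatment pools. Znhit6, an assembly factor of box C/D particles, went from 12.71 and 12.69 to 7.69 and 7.49 (−5.11 ± 0.22, adjusted p = 5.6e-05). Dcaf13, which is both a processome component and a cullin-4 adaptor known to be required for oocyte and embryo growth, went from 13.68 and 13.89 to 9.10 and 8.92 (−4.78 ± 0.23, adjusted p = 5.9e-05). Antibody-alone pools listed Dcaf13 at 13.86 and 13.24, at the non-manipulated level. Other named falls among processome genes were Fcf1 (−4.41 ± 0.15), Ddx49 (−4.17 ± 0.17), Dnttip2 (−4.03 ± 0.15) and Nop14 (−3.90 ± 0.16).

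Falls reached every step of the pathway on these lists. Among large-subunit genes, Rpf2, which helps to install 5S RNA, was at −4.75 ± 0.58 (adjusted p = 0.0014), Lsg1, a GTPase of late cytoplasmic maturation, at −4.29 ± 0.18 and Bop1, of the complex that processes 28S precursor RNA, at −3.89 ± 0.15. The RNA polymerase I subunit Polr1a fell by 2.56 and the ribosomal DNA factor Ubtf by 1.87 on the log2 scale. Fbl, the methyltransferase of box C/D particles, was at −3.79 ± 0.17, and its partner Nop58 at −3.95 ± 0.17. Polr1a stood at 6.52 and 7.07 with antibody alone, below the 7.22 and 7.15 of the full treatment.

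The bases before the transcription start of 4 of these genes are shown. A 7-letter motif of the type bound by ETS-family factors, CCGGAAG or its complement CTTCCGG, was common in this group and in several other lists. The 4 were taken in order of their fall, from called genes whose 120 bases hold the motif. Its presence in each was thus fixed by the choice. Each line gives the 120 bases up to the start in the direction of the gene, from RefSeq on GRCm38.p6, with the motif in capitals: Wdr74 at chr19:8735719-8735838 (plus strand), Rpf2 at chr10:40247040-40247159 (minus), Ddx54 at chr5:120613010-120613129 (plus) and Lsg1 at chr16:30587590-30587709 (minus).
Wdr74: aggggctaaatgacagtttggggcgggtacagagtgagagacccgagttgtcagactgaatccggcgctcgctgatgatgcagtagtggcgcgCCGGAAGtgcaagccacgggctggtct
Rpf2: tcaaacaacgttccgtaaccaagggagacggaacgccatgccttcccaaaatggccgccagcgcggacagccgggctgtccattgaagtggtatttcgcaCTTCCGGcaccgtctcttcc
Ddx54: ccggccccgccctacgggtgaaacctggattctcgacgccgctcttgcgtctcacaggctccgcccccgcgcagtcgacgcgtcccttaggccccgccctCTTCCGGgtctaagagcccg
Lsg1: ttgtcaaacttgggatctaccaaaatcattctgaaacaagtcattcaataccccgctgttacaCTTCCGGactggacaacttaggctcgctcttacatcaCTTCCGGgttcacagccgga

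The motif begins 27 bases before the start in Wdr74 and 20 bases before it in Rpf2 and Ddx54. Lsg1 holds it more than once, the first copy 57 bases before the start. In the window from 250 bases before to 50 after the first listed start, searched on both strands, 11.3% of 18265 genes held the motif. The share was 22.0% of 3954 protein-coding genes with a mean level of 8 or more, 26.9% of the 1888 of these that fell and 11.3% of the 344 that rose. It was 40.5% of 42 processome genes, 48.8% of 43 large-subunit genes, 57.1% of 14 polymerase I genes, 27.3% of 11 small nucleolar ribonucleoprotein genes and 46.9% of 32 ribosomal protein genes. The motif was also held by 66.7% of 9 COP9 subunits, 46.2% of 13 aminoacyl-tRNA synthetase genes and 41.4% of 29 proteasome genes. For 31 translation factors the share was 38.7%, for 48 spliceosome and hnRNP genes 37.5% and for 63 maternal genes 3.17%. A match describes letters in the window and is not a measured binding site, and no test was made of these shares. CACGTG, the E-box letters bound by MYC-family factors, was held by 7.98% of all genes and 11.4% of the protein-coding genes at a mean level of 8 or more. Its share was 31.0% of the processome genes, 18.6% of large-subunit genes, 14.3% of polymerase I genes, 3.12% of ribosomal protein genes and 0 of the 11 small nucleolar ribonucleoprotein genes. Ddx54, a helicase of large-subunit assembly, was listed at 13.02 and 13.06 in non-manipulated pools and 8.86 and 8.49 after full treatment (−4.37 ± 0.53, adjusted p = 0.0013), with 8.03 and 9.89 for antibody alone.

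The proteins of the ribosome and of translation fell with its assembly factors. Of 39 measured cytosolic ribosomal protein genes 37 fell (median −2.16; −1.35 and 28 lower after quantile normalization). Rpl4 went from 16.68 and 16.65 to 13.92 and 13.73 (−2.84 ± 0.15) and Rps7 from 13.57 and 13.55 to 10.54 and 10.26 (−3.16 ± 0.16). Ribosomal proteins have many processed pseudogenes, and hybridisation to copies was not tested. Of 42 translation factors 35 fell (median −1.995; −1.39 and 26), among them Eif3a (−4.41 ± 0.17) and Eif3m (−4.38 ± 0.23) of the initiation complex eIF3, the poly(A)-binding protein Pabpc1 (−3.05 ± 0.18) and the cap-binding protein Eif4e (−2.09 ± 0.15). Of 20 aminoacyl-tRNA synthetase genes 15 fell (median −1.60; −1.34 and 10 lower after quantile normalization), such as Rars for arginine (−3.81 ± 0.29) and Kars for lysine (−2.79 ± 0.20), and without non-manipulated replicate 1 the count was 8. Of 75 mitochondrial ribosomal protein genes 42 fell (median −1.06; −0.70 after quantile normalization), with Mrpl34 at −3.70 ± 0.30, and without non-manipulated replicate 1 or 2 the count was 26.

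The 26S proteasome, which degrades ubiquitinated proteins and is the machine that Trim-Away relies on, had lower transcript levels in 31 of 36 measured genes (median −2.02; −1.34 and 23 lower after quantile normalization). Psmb1, a subunit of the core, went from 13.82 and 13.77 to 8.84 and 8.27 (−5.24 ± 0.40, adjusted p = 0.00019). Psmd12 of the lid was at −4.98 ± 0.27, the ATPase Psmc5 at −4.62 ± 0.19, Psmd7 at −4.52 ± 0.21 and the core subunit Psma3 at −3.99 ± 0.16. Psmd14, the lid's deubiquitinase, which acts in Trim21-driven degradation, was at −2.98 ± 0.16. All 36 differences were negative. Of 25 ubiquitin, E1 and E2 genes 9 fell and 2 rose (median −0.37, which turned to 0.25 after quantile normalization, with 10 higher and 4 lower). Ube2o was at −2.06 ± 0.18, and Ube2j1, an E2 of the endoplasmic reticulum, at 1.95 ± 0.17. Without non-manipulated replicate 1 or 2, full-treatment replicate 1 or 2, 3, 3, 5 and 4 of these genes fell.

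The complex that the antibody targets changed unevenly at the RNA level. Cops3 was listed at 9.50 and 9.52 in non-manipulated pools and 9.06 and 9.40 after full treatment, a difference of −0.28 ± 0.16 that did not pass (adjusted p = 0.21). Trim-Away acts on protein, so the RNA is no direct check of COPS3 loss, which the arrays did not measure. Of 10 COP9 subunits 4 fell (40.0%, median −0.71), beside 49.3% of all genes at a mean level of 10 to 12. Cops6, a scaffold subunit, went from 12.41 and 12.35 to 9.65 and 9.53 (−2.79 ± 0.16, adjusted p = 7.9e-05). Its full-treatment pools were the lowest of all 8 pools. Cops4 (−1.44 ± 0.17, adjusted p = 0.0011), Cops9 (−1.36 ± 0.35, adjusted p = 0.027) and Gps1 (−0.81 ± 0.24, adjusted p = 0.042) also fell. Cops5, the catalytic subunit that cuts NEDD8 off, was at −1.69 ± 0.68 (adjusted p = 0.096), with 7.59 and 10.04 in the antibody-alone pools widening its error. Cops7a (−0.61), Cops2 (−0.15), Cops7b (−0.07) and Cops8 (0.37) had adjusted p-values from 0.16 to 0.81. After quantile normalization 1 subunit was lower and 1 higher and the median was 0.31, with Gps1 at 0.19 and Cops7b at 0.82. Without non-manipulated replicate 1 or 2, or full-treatment replicate 2, 2 subunits fell.

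Transcripts of the ligases that the signalosome serves fell about as often as all protein-coding genes with a mean level of 8 or more. The shares called lower were 47.4% and 47.5% as deposited. Of 38 cullins, RING partners and neddylation enzymes 18 fell (median −0.88; −0.25 with 10 lower and 5 higher after quantile normalization), and 11 fell without non-manipulated replicate 1. Nedd8, the modifier itself, went from 13.79 and 13.89 to 10.50 and 10.02 (−3.58 ± 0.26, adjusted p = 0.00016). Its full-treatment pools were the lowest of all. Dtl, the adaptor that targets the licensing factor CDT1, was at −2.88 ± 0.24, the RING protein Rnf7 at −2.46 ± 0.21 and the scaffold Cul3 at −2.07 ± 0.18. Of 18 transcripts whose proteins are known substrates of these ligases, 7 fell and 2 rose (median −0.54; 0.26 after quantile normalization, with 2 lower). Orc1 (−2.12 ± 0.19) and Wee1 (−1.28 ± 0.22) were among those that fell, and Ccne2, a cyclin of S-phase entry, was at 0.85 ± 0.15. Without non-manipulated replicate 1 or 2, or full-treatment replicate 2, 1, 2 and 4 of the 18 fell.

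Among the largest falls of single genes were several outside these groups. Slc39a4, a zinc importer, went from 13.57 and 13.44 to 6.58 and 6.85, a difference of −6.79 ± 0.70 (adjusted p = 0.00064) or 111-fold. The antibody-alone pools stood between, at 7.68 and 10.19. Ssr2, a subunit of the translocon-associated complex of the endoplasmic reticulum, went from 15.52 and 15.56 to 9.25 and 9.42 (−6.21 ± 0.27, 73.8-fold, adjusted p = 5.6e-05). Tsn, the nucleic-acid-binding protein translin, went from 12.09 and 12.08 to 6.71 and 6.02 (−5.72 ± 0.25, 52.7-fold, adjusted p = 5.6e-05), while both antibody-alone pools, at 11.64 and 11.74, lay near the non-manipulated ones. Calcoco2, a selective autophagy receptor, went from 15.74 and 15.67 to 10.64 and 9.60 (−5.58 ± 0.32, 48.0-fold, adjusted p = 8.6e-05). The actin-related chromatin protein Actr6 (−5.49 ± 0.34), the vitamin transporter Slc5a6 (−5.37 ± 0.59), the mitochondrial carrier Slc25a44 (−5.36 ± 0.24), the Rab regulator Tbc1d9 (−4.99 ± 0.54), the mitochondrial import chaperone Timm13 (−4.93 ± 0.64) and the endoplasmic reticulum protein Bcap31 (−4.89 ± 0.42) completed the 15 largest falls with Wdr74, Ddx21, Psmb1, Psmd12 and Znhit6.

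**Figure D3:**
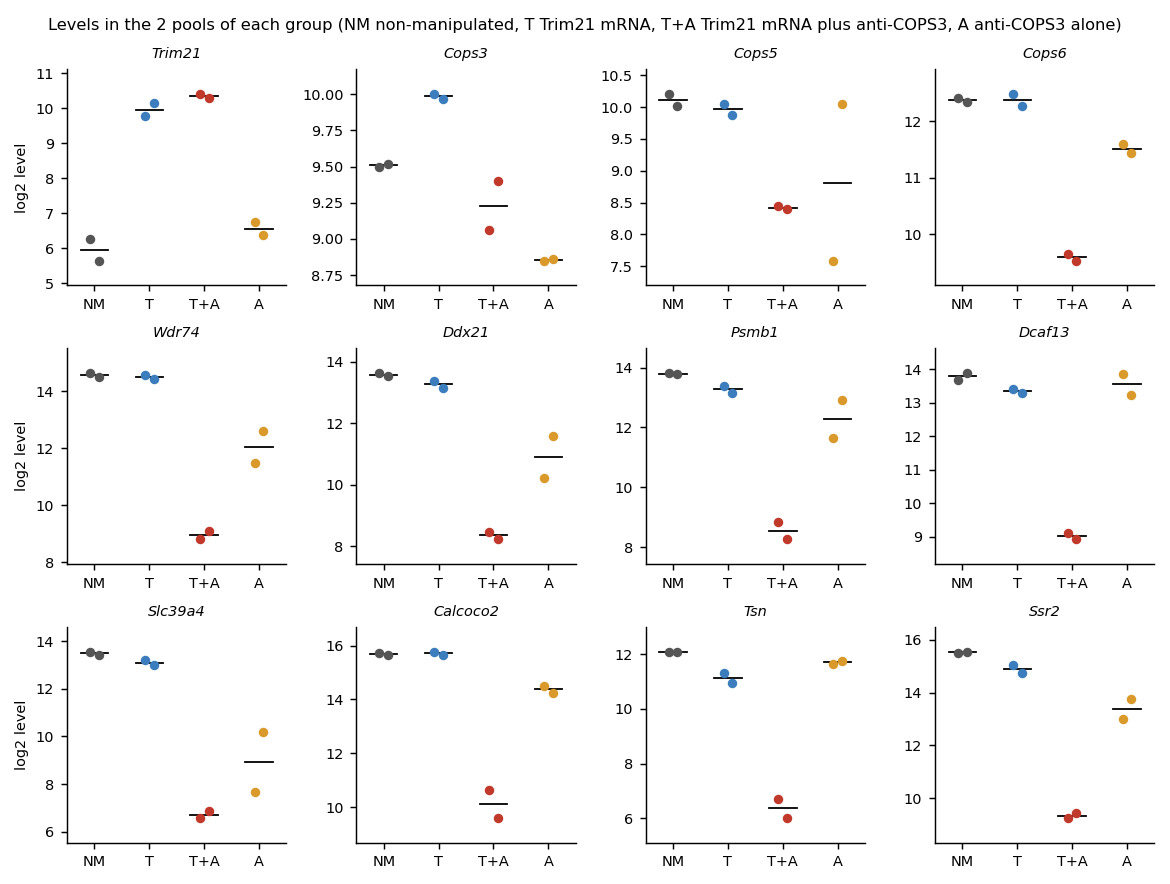
Log2 levels in the 2 pools of each of the 4 groups (points, with the group mean as a bar) for Trim21, Cops3, Cops5, Cops6 and 8 genes that fell in the full treatment (NM non-manipulated, T Trim21 mRNA, T+A full treatment, A antibody alone). Each panel has its own log2 axis. The full-treatment pools of Wdr74 (8.81 and 9.10), Tsn (6.71 and 6.02) and Dcaf13 (9.10 and 8.92) lie below all other pools.

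Of 54 spliceosome and hnRNP genes 43 fell (median −1.66; −0.94 and 28 lower after quantile normalization), such as Hnrnpm (−3.31 ± 0.19), the U2 protein Snrpa1 (−2.88 ± 0.17) and the splicing regulator Srsf6 (−2.83 ± 0.18). Without non-manipulated replicate 1 or 2, or full-treatment replicate 2, 27, 28 and 28 of them fell. RNA polymerase II subunits and general transcription factors fell in 26 of 42 cases (median −1.48; −0.62 and 17). The polymerase subunit Polr2d went from 13.33 and 13.47 to 8.84 and 8.90 (−4.53 ± 0.19, adjusted p = 4.9e-05), and Ccnt1, the cyclin of the elongation kinase P-TEFb, was at −3.12 ± 0.18. Of 46 nucleoporins and karyopherins 24 fell and 2 rose (median −1.24, and −0.43 with 15 lower and 10 higher after quantile normalization). Their share lower was 52.2%, near the 49.3% of all genes at a mean level of 10 to 12. Decay and chromatin genes, given next, fell in 44.7% and 45.8% of cases. These shares were near the 47.5% of protein-coding genes with a mean level of 8 or more. For spliceosome and hnRNP genes the share was 79.6%, and for polymerase II genes 61.9%. The pore subunit Nup107 was at −4.13 ± 0.16 and the import receptor Kpna2 at −3.17 ± 0.15, while Kpna7, an importin of oocytes and early embryos, went from 10.05 and 10.06 to 12.52 and 12.47 (2.44 ± 0.14, adjusted p = 7.8e-05). Of 47 genes of deadenylation and mRNA decay 21 fell and 5 rose (median −0.69; −0.29 with 14 lower and 10 higher after quantile normalization), with the exosome nuclease Dis3 at −2.27 ± 0.22, and without non-manipulated replicate 1 or 2, 13 and 11 fell. Of 72 DNA methylation and chromatin regulators 33 fell and 5 rose (median −0.57), and this median turned to 0.11 after quantile normalization, with 20 lower and 23 higher. The SWI/SNF subunits Smarcc1 (−3.27 ± 0.15) and Smarca4 (−1.71 ± 0.15) and the demethylase Kdm5a (−2.92 ± 0.19) were among the falls, and without non-manipulated replicate 1, 21 of the 72 fell.

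Of 67 mitotic genes 47 fell and 3 rose (median −1.42, and −0.54 with 29 lower and 7 higher after quantile normalization). The share lower was 70.1%, and 65.4% for the replication genes below. Beside them, 47.5% of protein-coding genes with a mean level of 8 or more fell. Cdc20, the activator of the anaphase-promoting complex, went from 15.11 and 14.99 to 10.67 and 10.38 (−4.53 ± 0.16, adjusted p = 4.9e-05), and its antibody-alone pools lay between, at 12.56 and 12.59. Cdk1, the mitotic kinase, was at −3.21 ± 0.17, its activating phosphatase Cdc25c at −3.12 ± 0.20 and Anln, a cytokinesis protein, at −2.81 ± 0.18. Of 52 replication genes 34 fell (median −1.12; −0.43 with 21 lower and 6 higher), among them the helicase subunits Gins3 (−4.38 ± 0.18) and Cdc45 (−2.85 ± 0.21) and the CDT1 inhibitor Gmnn (−3.14 ± 0.24). When the fit omitted non-manipulated replicate 1 or 2 the count was 21 and 19. The 25 G1/S cyclins, kinases and E2F factors had a median of −0.04 with 5 higher and 2 lower, and after quantile normalization the median was 0.30. At a mean level of 6 to 8, 10.7% of all genes were higher and 25.6% lower. E2f2 went from 7.90 in both pools to 10.37 and 10.02 (2.29 ± 0.18, adjusted p = 0.00019) and E2f4 was at 1.12 ± 0.21, whereas Cdk4 was at −2.88 ± 0.14. In fits without non-manipulated replicate 1 or 2, 1 of the 25 was higher, and 3 were without full-treatment replicate 1.

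As deposited, 66.7% of oxidative phosphorylation, 61.8% of nucleotide synthesis and 81.1% of protein folding genes fell. For pyruvate oxidation and the TCA cycle the share was 38.2%, and for 23 glycolysis and glucose uptake genes 39.1%. Protein-coding genes with a mean level of 8 or more fell in 47.5% of cases. Glycolysis genes lay lower than that, at a median level of 6.945 in non-manipulated pools, and TCA cycle genes at 8.19. Of all genes at a mean level of 6 to 8, 25.6% fell, and of those at 8 to 10, 44.6%. Of 72 nuclear genes of oxidative phosphorylation 48 fell (median −1.22; −0.66 and 30 lower after quantile normalization), such as the complex I subunit Ndufs8 (−3.71 ± 0.15) and the ATP synthase subunit Atp5g1 (−3.17 ± 0.16). When the fit omitted non-manipulated replicate 1 or 2, 24 and 25 of them fell, and without full-treatment replicate 1 or 2, 32 did. Of 34 genes of pyruvate oxidation and the TCA cycle 13 fell and 2 rose (median −0.66; 0.06 with 7 lower and 9 higher after quantile normalization). Pdhb, of the pyruvate dehydrogenase that 2-cell embryos need for growth on pyruvate, went from 12.65 and 12.81 to 8.91 and 9.08 (−3.73 ± 0.21, adjusted p = 8e-05), while the antibody-alone pools were the highest of all at 13.72 and 13.22. Without either non-manipulated replicate 7 of these 34 genes fell, and 8 without either full-treatment replicate. Of 34 nucleotide synthesis genes 21 fell and 1 rose (median −1.94; −1.17), with Cad of pyrimidine synthesis at −3.47 ± 0.21. Of 37 chaperonin and heat shock genes 30 fell and 2 rose (median −1.55; −1.01 and 19), such as the chaperonin subunit Cct3 (−3.08 ± 0.18), and without non-manipulated replicate 1 or 2, 19 and 17 fell. The metallothionein Mt1, which binds zinc, was at −4.10 ± 0.39, and Mt2 at −2.69 ± 0.22.

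Stress, death and innate immune genes showed both directions. Beside their counts, 25.6% of all genes at a mean level of 6 to 8 and 44.6% of those at 8 to 10 were called lower. Of 41 genes that answer unfolded protein or other integrated stress, 21 fell and 2 rose (median −0.88; −0.43 and 12 after quantile normalization), and Dnajb9, a chaperone of the endoplasmic reticulum, was at −3.48 ± 0.33. Of 34 genes of the p53 network 8 fell and 1 rose (median −0.23; −0.07 with 8 lower and 8 higher after quantile normalization), with Gadd45b at −3.80 ± 0.33 and Sesn2 at −2.66 ± 0.20. Without the antibody-alone pools 13 of the 34 fell and 4 rose. Of 35 BCL2-family and caspase genes 10 fell and 3 rose (median 0.04; −0.06 with 6 lower and 6 higher after quantile normalization), with the survival factor Mcl1 at −1.74 ± 0.19 and Aifm1, a mitochondrial flavoprotein, at −2.96 ± 0.24. In fits without non-manipulated replicate 1 or 2, or full-treatment replicate 2, 5 of the 35 fell. Of 53 interferon, nucleic acid sensing and NF-kB genes 8 rose and 10 fell, near the shares of all genes (median 0.13; −0.06 with 7 higher and 6 lower after quantile normalization). Within that list Rela, the p65 subunit of NF-kB, went from 8.72 and 8.70 to 11.90 and 11.84 (3.16 ± 0.20, adjusted p = 0.00011), above all 6 other pools, which lay between 8.49 and 9.13. Nfkb2 went from 5.58 and 5.55 to 6.90 and 6.82 (1.29 ± 0.14), and the interferon signalling gene Stat2 was at −3.04 ± 0.38. In that list 3, 4, 6 and 4 rose and 4, 3, 5 and 4 fell without non-manipulated replicate 1 or 2 and full-treatment replicate 1 or 2, and 18 rose and 13 fell without the antibody-alone pools.

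Transcripts stored by the oocyte were more often higher than all genes were. After quantile normalization 30.6% of all genes at a mean level of 10 to 12 were higher, in place of 11.5% as deposited. Of 76 measured maternal genes 36 rose, against 15.1% of all genes, and 3 fell (median 0.66; 1.56 with 61 higher after quantile normalization; 0.41 with 24 after median centring). When the fit omitted non-manipulated replicate 1 or 2, 16 rose. Oosp2, an oocyte-secreted protein, went from 11.60 and 11.64 to 14.22 and 14.39 (2.69 ± 0.19, 6.43-fold, adjusted p = 0.00014), and with antibody alone it was at 13.47 and 13.85. Nobox, a transcription factor of oocyte growth, went from 9.04 and 8.99 to 11.29 and 11.34 (2.30 ± 0.21), Ooep of the subcortical maternal complex from 7.33 and 7.24 to 9.54 and 9.08 (2.02 ± 0.20) and the histone chaperone Npm2 from 12.69 and 12.65 to 14.45 and 14.67 (1.89 ± 0.25). In these 4 genes both full-treatment pools were above every other pool. Ybx2, which stabilises stored mRNA, was at 1.74 ± 0.17 and Cnot6l, a deadenylase that clears it, at 0.89 ± 0.21. The 3 that fell were the zona pellucida gene Zp3 (−2.37 ± 0.40), Tdrd12 (−1.73 ± 0.19) and Cd9, the egg membrane protein of sperm fusion (−1.30 ± 0.18). Other well-known maternal genes did not pass, such as Btg4 (−0.21, adjusted p = 0.39), Zp2 (0.46, adjusted p = 0.10), Bmp15 (0.24, adjusted p = 0.54) and Dppa3 (−0.52, adjusted p = 0.058).

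The Obox, Nlrp and Pramel and Oog families also had more rises than falls. Of 41 Obox homeobox symbols, which hold 37 distinct rows of values, 28 rose and 3 fell (median 1.68; 2.33 with 33 higher after quantile normalization), and without non-manipulated replicate 1 or 2, 13 and 10 rose. Obox5 went from 14.84 and 14.80 to 16.31 and 15.91 (1.29 ± 0.19), whereas Obox6 went the other way, from 13.63 and 13.64 to 10.86 and 10.71 (−2.85 ± 0.17, adjusted p = 8.8e-05). Of 20 Nlrp genes 8 rose (median 0.49; 1.23), with Nlrp4e at 2.45 ± 0.45 and Nlrp9b at 2.15 ± 0.20, and the counts were 2, 2, 4 and 5 without non-manipulated replicate 1 or 2 and full-treatment replicate 1 or 2. Of 37 Pramel and Oog genes 14 rose and 7 fell (median 0.74, and 1.59 with 26 higher and 5 lower after quantile normalization). The 18.9% of them that fell was above the 16.6% of all genes. Pramel47 was at 1.52 ± 0.18, against −3.38 ± 0.32 for Pramel6 and −3.13 ± 0.24 for Pramel7. In fits without non-manipulated replicate 1 or 2 or full-treatment replicate 1, 7, 8 and 9 of the 37 rose. Members of these families are similar in sequence, and hybridisation between copies was not tested.

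The genes of the 2-cell burst moved both ways. Of 36 measured genes 15 rose and 11 fell, with a median of 0.62 (1.66 with 23 higher and 9 lower after quantile normalization). All 6 measured Zscan4 genes, whose proteins act on telomeres and chromatin in 2-cell embryos, rose by 2.16 to 2.85, and they did so under quantile normalization (median 3.71), median centring (2.46) and without any of the 4 pools compared. Zscan4c went from 9.35 and 9.01 to 11.89 and 11.96 (2.75 ± 0.34, 6.70-fold, adjusted p = 0.0015), and Zscan4a from 9.53 and 9.44 to 12.36 and 12.31 (2.85 ± 0.35, adjusted p = 0.0014). With Trim21 mRNA they stood at 9.73 and 9.87 and at 10.05 and 10.38, and with antibody alone at 9.45 and 10.56 and at 9.68 and 10.82.

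Usp17lc, of a deubiquitinase family active at this stage, had the largest rise of a gene with an ordinary name after Trim21, from 10.50 and 10.25 to 13.83 and 14.27 (3.67 ± 0.60, 12.8-fold, adjusted p = 0.0048). Tmem92 (2.62 ± 0.49), Rfpl4b (2.21 ± 0.30), Zfp352 (1.76 ± 0.29), Arg2 (1.56 ± 0.29) and Tcstv3 (1.53 ± 0.21) rose too. In the other direction Trim43b, of a family switched on with the embryonic genome, went from 13.10 and 13.21 to 8.97 and 8.39 (−4.47 ± 0.26, 22.2-fold, adjusted p = 9.1e-05). Trim43c was at −4.49 ± 0.27, Trim43a at −3.24 ± 0.14, the nuclear body gene Sp110 at −2.10 ± 0.16, Ubtfl1 at −1.95 ± 0.35 and Snai1 at −1.38 ± 0.26. The same list thus held rises of up to 12.8-fold and falls of up to 22.4-fold.

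**Figure D4:**
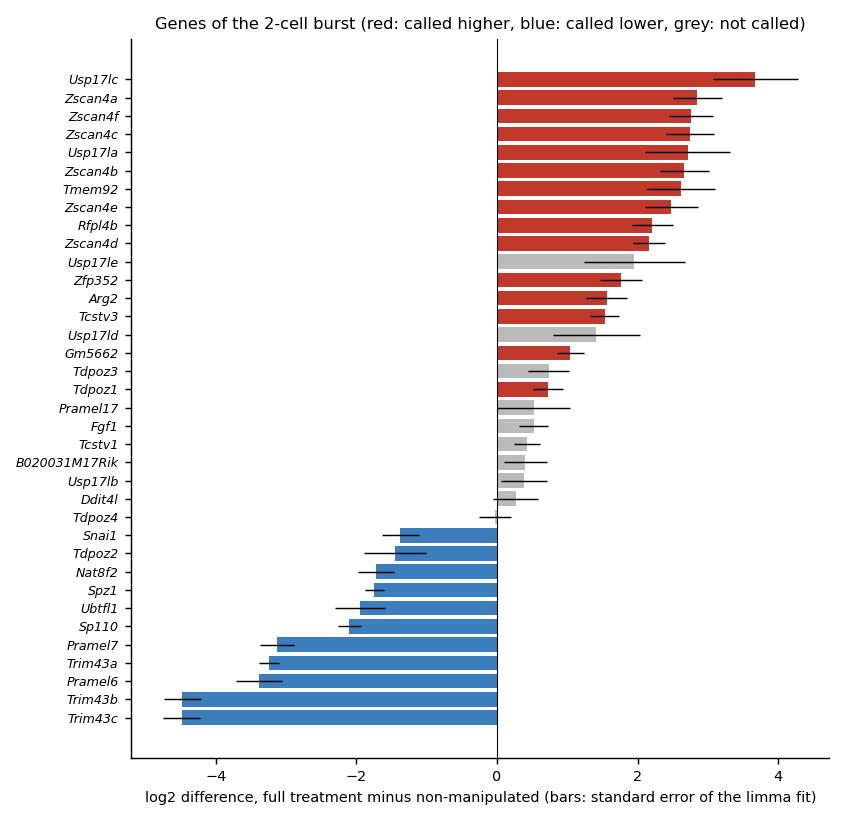
Log2 difference, full treatment minus non-manipulated, of 36 measured genes of the 2-cell burst, with the standard error of the limma fit as error bars (n = 2 pools a group). Bars in red were called higher (15), in blue lower (11) and in grey neither, and they run from 3.67 for Usp17lc to −4.49 for Trim43c.

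The starts of 3 Zscan4 genes are shown to set them beside the ribosome assembly genes above. A stretch was printed only if it held TATAAA, so its presence in each was fixed by the choice. The 3 stretches also repeat long runs of the same bases. Each line gives 120 bases before the first listed start, from RefSeq on GRCm38.p6, with TATAAA in capitals: Zscan4c at chr7:11005625-11005744 (plus strand), Zscan4d at chr7:11166149-11166268 (minus) and Zscan4f at chr7:11397795-11397914 (plus).
Zscan4c: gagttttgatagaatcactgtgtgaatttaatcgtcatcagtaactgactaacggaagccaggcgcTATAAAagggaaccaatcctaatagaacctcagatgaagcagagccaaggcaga
Zscan4d: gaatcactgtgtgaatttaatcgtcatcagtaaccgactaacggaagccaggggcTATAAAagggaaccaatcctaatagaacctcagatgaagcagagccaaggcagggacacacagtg
Zscan4f: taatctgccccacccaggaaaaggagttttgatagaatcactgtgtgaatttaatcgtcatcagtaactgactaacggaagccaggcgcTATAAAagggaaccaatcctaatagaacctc

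The motif lies 54, 65 and 31 bases before the listed start of Zscan4c, Zscan4d and Zscan4f. In the window from 250 before to 50 after the start, on both strands, TATAAA was in 13.0% of all genes, in 4 of 4 Zscan4 genes with a listed start and in 8 of 22 genes of the 2-cell burst. Of those 22 genes 0 held CCGGAAG, against 11.3% of all genes. TATAAA was also in 41.5% of 918 olfactory receptor, 34.6% of 272 vomeronasal receptor and 84.4% of 45 keratin-associated genes. For 24 clustered histone genes the share was 58.3%. It was 11.3% of the 344 protein-coding genes with a mean level of 8 or more that rose. CCGGAAG was likewise in 0 of the 918 olfactory receptor genes. As above, these are counts of letters and were not tested.

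Regulators on the list of embryonic genome activators fell more often than they rose, with shares near those of all genes at similar levels. The shares were 55.9% lower and 14.7% higher, beside 49.3% and 11.5% of all genes at a mean level of 10 to 12. Of 34 measured genes 19 fell and 5 rose (median −0.81; −0.43 with 15 lower and 11 higher after quantile normalization). Dppa4, a factor upstream of Dux, went from 11.84 and 11.71 to 7.25 and 7.12 (−4.59 ± 0.19, adjusted p = 4.9e-05), with antibody alone at 11.34 and 11.00. Nucleolin, Ncl, was at −3.26 ± 0.23. Tead4, which directs the later trophectoderm, went from 10.75 and 10.54 to 6.94 and 7.14 (−3.60 ± 0.20, adjusted p = 7.4e-05). Of 39 preimplantation lineage and adhesion genes 6 fell and 3 rose (median −0.16; −0.13 with 7 lower and 6 higher after quantile normalization), 14 fell without the antibody-alone pools, and 0 rose with either non-manipulated pool or full-treatment replicate 2 left out. The imprinted growth regulators Phlda2 (−4.14 ± 0.20) and Igf2r (−3.91 ± 0.19) fell, on a list of 34 with 7 falls and 1 rise (median −0.01; −0.19 with 5 lower and 2 higher after quantile normalization), or 4 falls without non-manipulated replicate 2.

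Small non-coding RNAs gave the largest rises of the comparison. Of 955 small nucleolar RNA genes 276 rose and 9 fell (28.9% and 0.94%; median 0.52; 0.23 with 205 higher and 15 lower after quantile normalization), and among the 244 with a mean level of 6 or more, 135 rose and 8 fell (median 1.32). The mean level was taken over all 8 pools, so a gene high only in the full treatment could pass that minimum. The share of the 244 that rose is therefore not separate support for a rise. Small nucleolar RNA genes supplied 17 of the 27 genes at least 16-fold higher. Beside the whole class, 28.3% of olfactory receptor genes were called higher as deposited. After quantile normalization 103 of 1088 were (median 0.24). Snord118, the U8 RNA needed to process 28S and 5.8S ribosomal RNA, went from 7.04 and 6.67 to 14.36 and 15.20 (7.92 ± 0.37, 243-fold, adjusted p = 5.8e-05). Snora30 went from 10.41 and 10.66 to 16.17 and 17.35 (6.22 ± 0.47, 74.8-fold) and Snord13 from 12.98 and 12.60 to 18.15 and 18.62 (5.59 ± 0.34, 48.3-fold). All were above every pool of the other groups, and Trim21 mRNA pools stood between, at 8.02 and 8.82 for Snord118. Snord93 (−3.38 ± 0.77) and Snord72 (−3.27 ± 0.88) were among the 4 that fell of 68 named C/D, H/ACA and Cajal body RNAs, of which 30 rose (median 1.09; 1.70 after quantile normalization). In that list 14 fell without the antibody-alone pools, and 0 fell with either non-manipulated pool or full-treatment replicate 1 left out.

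Spliceosomal and other small RNAs were grouped after their values were seen. Of 15 named spliceosomal and U3 RNA symbols, which hold 12 distinct rows of values, 12 rose (median 2.52; 3.15 and 14 after quantile normalization). Rnu12, of the minor spliceosome, went from 7.39 and 8.17 to 12.74 and 13.34 (5.26 ± 0.31, 38.3-fold, adjusted p = 9.1e-05), and its partner Rnu11 from 8.03 and 8.17 to 11.95 and 13.29 (4.52 ± 0.45). The Y RNA Rny1 went from 11.83 and 11.60 to 15.95 and 16.21 (4.37 ± 0.36, adjusted p = 0.00025), with 13.64 and 14.18 for Trim21 mRNA and 9.20 and 8.17 for antibody alone. Rpph1, the RNA of RNase P, was at 2.25 ± 0.49, while telomerase RNA, Terc, fell (−1.10 ± 0.22) and Rny3 was at 1.79 ± 0.66 (adjusted p = 0.075). These transcripts mostly lack poly(A) tails, and the kit's amplification of such short RNAs was not examined here.

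Hairpins of the let-7 family, microRNAs known for holding back growth and stem-cell programmes, rose at 8 of 12 loci (median 1.69; 1.48 with 6 higher after quantile normalization). This family was also chosen after its values were seen. The mature sequences show what the loci share, the seed of bases 2 to 8 in capitals, and are printed from RefSeq on GRCm38.p6 for the 9 mature forms matched to 11 of the 12 hairpins.
let-7a-5p: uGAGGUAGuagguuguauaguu
let-7b-5p: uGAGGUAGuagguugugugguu
let-7c-5p: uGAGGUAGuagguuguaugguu
let-7d-5p: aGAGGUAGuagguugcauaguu
let-7e-5p: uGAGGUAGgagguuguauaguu
let-7f-5p: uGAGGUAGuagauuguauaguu
let-7g-5p: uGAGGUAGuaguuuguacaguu
let-7i-5p: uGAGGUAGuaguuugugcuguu
miR-98-5p: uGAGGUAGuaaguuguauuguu

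All of them carry the seed GAGGUAG, so they are grouped as 1 seed family. Each array value belongs to the hairpin's locus and not to the mature microRNA. Mirlet7a-1 went from 5.47 and 5.05 to 8.21 and 8.88 (3.29 ± 0.75, adjusted p = 0.018), Mirlet7f-1 from 4.69 and 4.47 to 7.51 and 7.24 (2.79 ± 0.21, adjusted p = 0.00019) and Mirlet7b from 5.71 and 5.74 to 8.40 and 9.01 (2.98 ± 0.65, adjusted p = 0.016). Mir98 (2.58 ± 0.35), Mirlet7c-2 (2.23 ± 0.18), Mirlet7f-2 (2.18 ± 0.45), Mirlet7c-1 (1.20 ± 0.36) and Mirlet7e (1.02 ± 0.26) rose as well. Those that did not pass were Mirlet7a-2 (1.05, adjusted p = 0.17), Mirlet7g (0.66, adjusted p = 0.07), Mirlet7i (0.55, adjusted p = 0.087) and Mirlet7d (−0.47, adjusted p = 0.48). When the fit omitted non-manipulated replicate 1 or 2, or full-treatment replicate 2, 3 loci passed, and 5 did without full-treatment replicate 1. Over all 924 microRNA genes 251 rose (27.2%) and 21 fell (2.27%), with a median of 0.49 (0.22 with 183 higher and 36 lower after quantile normalization). As deposited the share that rose was near the 28.3% of olfactory receptor genes. After quantile normalization 103 of 1088 olfactory receptor genes were higher (median 0.24).

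**Figure D5:**
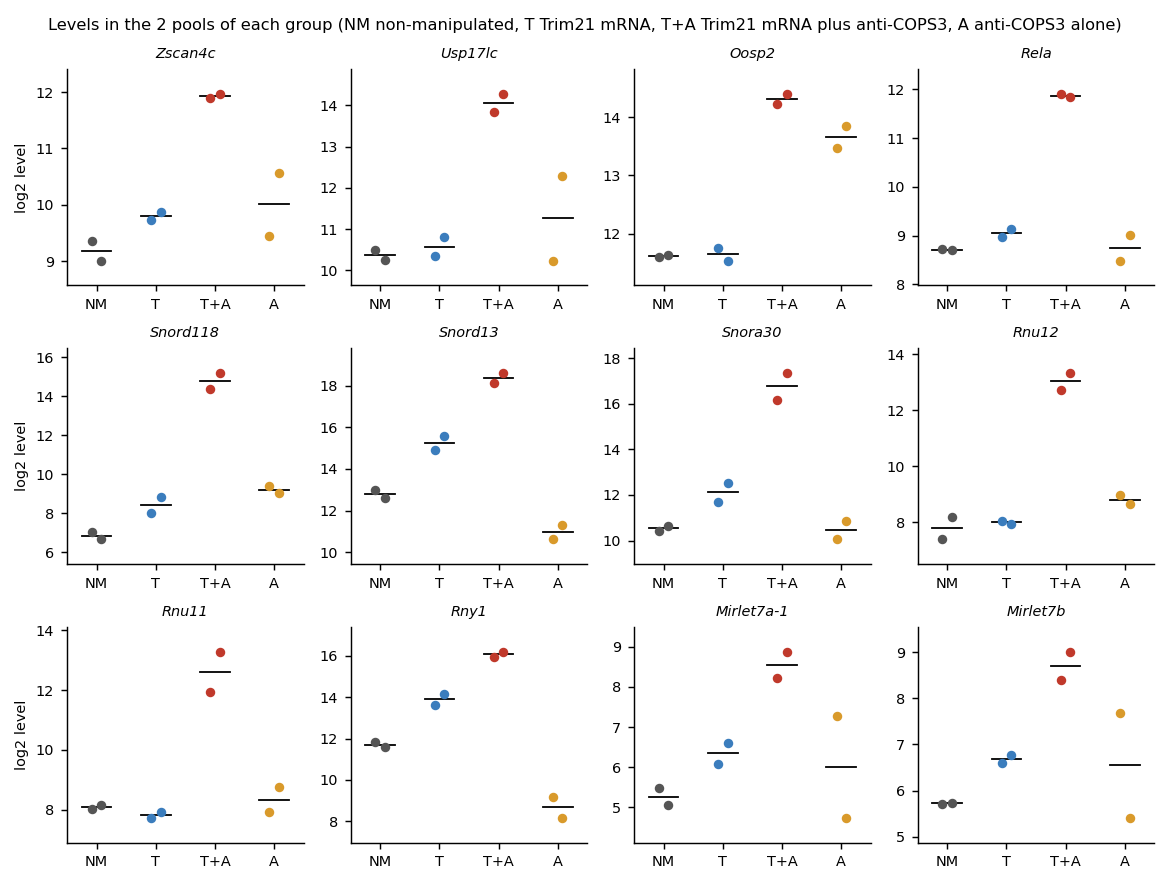
Log2 levels in the 2 pools of each of the 4 groups (points, with the group mean as a bar) for 12 genes that rose in the full treatment (NM non-manipulated, T Trim21 mRNA, T+A full treatment, A antibody alone). Each panel has its own log2 axis. The full-treatment pools lie above all 6 other pools in every panel, for instance at 11.90 and 11.84 for Rela and 14.36 and 15.20 for Snord118.

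Other protein-coding genes among the largest rises were Prr32 (3.36 ± 0.88, adjusted p = 0.028), the glutathione transferase Mgst3 (3.21 ± 0.30), Tmem181a (3.00 ± 0.26), the immune receptor Trem1 (2.85 ± 0.23), the cytokine Il34 (2.83 ± 0.16), Myocos (2.69 ± 0.25), the kinase Pak4 (2.67 ± 0.27) and Tcl1b5 of the oocyte-expressed Tcl1 family (2.65 ± 0.29). Il34 went from 7.62 and 7.43 to 10.26 and 10.46, with 9.33 and 9.21 for antibody alone. Tuba1c, an alpha-tubulin, went from 13.36 and 13.39 to 15.83 and 15.92 (2.5 ± 0.16), and Tgfb2, a growth factor, from 12.86 and 12.80 to 15.11 and 15.01 (2.23 ± 0.14). For Tgfb2 the antibody-alone pools were also high, at 14.37 and 14.24.

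Among 4765 protein-coding genes with a mean level of 8 or more, the fall was smaller in long genes, as a description across genes. The fifth of these genes with the shortest genomic span, 0.334 to 8.88 kb, had a median difference of −1.14, with 54.8% called lower. The fifth with the longest span, 67.5 to 774 kb, had a median of −0.17, with 27.2% called lower. Their median levels in the non-manipulated pools were 10.4 and 9.87.

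Sensory receptor genes, known from the olfactory system, lay at the low end of the arrays. Of 1088 olfactory receptor genes 308 (28.3%) were called higher and 2 lower (median 0.66; 0.24 with 103 higher after quantile normalization), at a median level of 4.13 in non-manipulated and 4.81 in full-treatment pools. In fits without non-manipulated replicate 1 or 2, or full-treatment replicate 2, 50, 48 and 106 were higher, and 680 without the antibody-alone pools. Of 301 vomeronasal receptor genes 74 were higher (median 0.56; 0.15 and 20 after quantile normalization), and without non-manipulated replicate 1 or 2 and full-treatment replicate 1 or 2 the counts were 8, 7, 51 and 26, against 166 without the antibody-alone pools. The part of this shift in other rises was not tested.

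Markers of other cells that could come with the embryos were near those same low levels. Of 21 cumulus and granulosa markers 2 rose and 1 fell (median difference 0.14; median level 4.65 in non-manipulated and 4.98 in full-treatment pools). Of 19 sperm markers 5 rose and 1 fell (median level 4.21 and 4.83), of 17 oviduct markers 4 rose and 2 fell (4.75 and 5.36), and of 17 blood markers 3 rose (4.74 and 5.13). When the fit omitted non-manipulated replicate 1 or full-treatment replicate 2, 0 or 1 member of these 4 lists was called higher, 0 or 1 without non-manipulated replicate 2, 3, 4, 0 and 4 without full-treatment replicate 1, and 7, 9, 8 and 7 without the antibody-alone pools. The steroid enzyme Hsd3b1 and the granulosa hormone subunit Inha differed between the non-manipulated pools, at 8.59 and 10.35 and at 6.3 and 10.32, and neither passed. Amhr2, on the cumulus list, was at 12.02 and 11.99 and fell to 7.69 and 8.80 (−3.76 ± 0.37). After quantile normalization the medians of the 4 lists were −0.17, 0.01, −0.09 and 0.01, with 1, 1, 2 and 2 members higher. The part of such cells in the results was not tested.

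How far the full treatment differed from its components was tested in the same fit. Against Trim21 mRNA 7126 genes (23.2%) passed, 2679 higher (8.73%) and 4447 lower (14.5%). Against antibody alone 4559 (14.8%) passed, 1343 higher (4.37%) and 3216 lower (10.5%). The share of calls that were higher was 37.6% against Trim21 mRNA (48.5% after quantile normalization, 20.7% after centring) and 29.5% against antibody alone (48.9% and 21.0%). For comparison, Trim21 mRNA against non-manipulated embryos gave 1 gene in limma (1928 at an unadjusted p under 0.05), and antibody alone gave 846 higher and 2237 lower. These comparisons share pools, so their values are set side by side only. Of the 17131 genes with an ordinary name, 360 were higher and 1325 lower in the full treatment in all 3 tests. The tests were against non-manipulated, Trim21 mRNA and antibody alone.

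Ribosome assembly genes differed from both component groups. The processome median was −2.61 against Trim21 mRNA, with 47 of 50 lower, and −1.24 against antibody alone, with 30 lower. For the proteasome these medians were −1.98 (27 of 36 lower) and −1.11 (18 lower). Rela was 2.82 above Trim21 mRNA (adjusted p = 0.00017) and 3.12 above antibody alone (adjusted p = 0.00036), and Dcaf13 was at −4.34 (adjusted p = 7.4e-05) and −4.54 (adjusted p = 0.00016). Zscan4c was at 2.12 (adjusted p = 0.0051) and 1.92 (adjusted p = 0.011). Snord118 was 6.36 and 5.57 higher (adjusted p = 9e-05 and 0.00037).

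Maternal transcripts separated the components. Against Trim21 mRNA 45 of 76 maternal genes were higher (median 0.93), but against antibody alone 17 were higher and 12 lower (median 0.05). The antibody-alone median over non-manipulated embryos was 0.68, beside 0.66 for the full treatment and −0.25 for Trim21 mRNA. Obox genes were similar, with 28 higher against Trim21 mRNA (median 1.99), 6 lower against antibody alone (median −0.28) and 1.86 for antibody alone over non-manipulated embryos. Slc39a4 did not pass against antibody alone (−2.22, adjusted p = 0.086), and neither did Oosp2 (0.65, adjusted p = 0.064).

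Small RNA classes did not share 1 order between these comparisons. The 68 named nucleolar and Cajal RNAs had a median of 1.66 against antibody alone (31 higher, 1 lower) and 0.75 against Trim21 mRNA (26 higher, 4 lower). Over all 955 small nucleolar RNA genes the medians were 0.24 against antibody alone and 0.45 against Trim21 mRNA, and for the let-7 hairpins they were 0.88 and 1.30. Snord49b went from 11.49 and 11.07 in non-manipulated pools to 15.86 and 16.38 in the full treatment, and stood at 4.18 and 7.12 with antibody alone and 13.00 and 13.46 with Trim21 mRNA. The histone gene H1f1 was high in both groups given Trim21 mRNA, at 13.02 and 13.54 in the full treatment, 12.97 and 13.19 with Trim21 mRNA, 11.72 and 11.37 in non-manipulated and 11.65 and 10.70 in antibody-alone pools. Its rise of 1.74 ± 0.34 over non-manipulated embryos (adjusted p = 0.01) stood beside 0.20 against Trim21 mRNA (adjusted p = 0.68). Such counts against antibody alone rest on pools that differ from each other: without antibody-alone replicate 1 or 2, 10443 and 8444 genes passed that test in place of 4559, and 2490 did without full-treatment replicate 2.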

How the data were processed

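Per the labels, total RNA of 8 pools of 100 embryos was amplified with the GeneChip WT Pico kit and hybridised to 1 array each. The deposited values are log2 levels of Affymetrix transcript clusters, made with Affymetrix Expression Console per the submitters' processing notes; its version, the summarisation method and the build: not given in the sources used here. In 1 deposited column, recorded as a score, 1 cell held a number no log2 level can reach; its row was dropped and the column used as log2, leaving 65955 clusters. Of these, 31257 name 1 gene, 1492 several and 33206 none, by the platform annotation; 1152 symbols were updated through RefSeq, and a gene on several clusters (441) took the one with the highest mean over all arrays. There were 0 columns of other samples.

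Differences were fitted with limma 3.58.1 (lmFit and eBayes, two-sided) in R 4.3.3, as 4 group means over all 8 arrays (4 residual degrees of freedom, median standard error 0.22), with Benjamini-Hochberg adjustment over all 30701 genes and calls at an adjusted p under 0.05. The code was tested on simulated data. Lists were counted, not tested; tables and plots used Python 3.11.15, pandas 2.3.3, numpy 2.4.6 and matplotlib 3.10.9. Promoter and microRNA sequences come from RefSeq (GRCm38.p6); 18265 genes had a promoter, and the first start was used for 2847 with several.

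Members and lists were chosen with earlier results of these data known. Genes were named by a rule: the 15 largest rises and falls, Trim21 and the COP9 subunits, up to 4 called list members with the smallest p, the 6 largest shared changes against all 3 other groups, and the 6 extremes each way at a level of 10 or more. Other list members named in the text, the let-7, spliceosomal and Y RNA groups, the sequences shown and the list counts under other settings were chosen after the values were seen. Replicate numbers do not pair the samples: deviations of same-numbered pools correlated at −0.19 to 0.14.

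Alternatives were other scalings (quantile, median centring, cyclic loess), a level minimum of 6, other row choices and priors, fewer groups, a 2-fold minimum, the replicate block and leaving out each pool.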

Additional observations from a re-analysis of the deposited data

Results flagged for a closer look

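Outside the genes compared, 34698 transcript clusters carry several gene names or no name. In the same limma fit over all clusters, 5293 of them (15.3%) were higher in the full treatment than in non-manipulated embryos and 1903 (5.48%) lower, with a median difference of 0.43. They are listed because a signal stands in data the comparisons do not use; what they transcribe was not examined.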

How the results depend on the processing

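In place of the 9742 genes called against non-manipulated embryos, a 2-fold minimum gave 6075, a level minimum of 6 gave 6244 of 12725 genes, all transcript clusters gave 15721 of 65955, only the 2 groups compared 14701 and the fit without antibody alone 17538. Against Trim21 mRNA (7126) the last 2 settings gave 10891 and 14193, and against antibody alone (4559) only the 2 groups gave 1408. Leaving out 1 pool at a time gave 3934 to 17538, 3366 to 14193 and 2490 to 10443 genes in these 3 comparisons. The lone pool then left in a group is assumed to vary like the others. The replicate numbers do not pair the pools, and with them as a block 8035, 6052 and 3815 genes were called.

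Of 228 named genes, 198 to 228 kept their call and direction under each alternative (213 of 213 with the level minimum), and 30 lost the call without either non-manipulated pool. Signs turned for Cops7b (0.815 after quantile normalization, 0.682 after cyclic loess), Gps1 (0.187 and 0.11) and Smad4 (0.002, quantile). Medians of 61 lists turned in these cases. After quantile normalization and loess, in that order, they were 0.309 and 0.23 for COP9, 0.265 and 0.23 for cullin substrates, 0.245 and 0.661 for ubiquitin enzymes, 0.295 and 0.148 for G1/S, 0.111 and 0.009 for chromatin, 0.37 and 0.286 for actin and tubulin, −0.063 and −0.097 for BCL2 and caspases, −0.061 and −0.072 for interferon and NF-kB, −0.169 and −0.13 for cumulus markers and −0.085 and −0.051 for oviduct markers. The TCA cycle turned to 0.064 with quantile normalization alone. Median centring gave −0.21 for BCL2, −0.12 for interferon, −0.235 for TGF-beta, −0.115 for cumulus and −0.055 for Tdpoz genes. The level minimum gave −0.708, −0.215, −0.065 and −2.285 for the first 4 of these and −0.66 for oviduct markers. All clusters gave 0.033 for G1/S and −0.05 for BCL2, and averaging a gene's clusters −0.005 for BCL2. With non-manipulated replicate 2 left out G1/S was at 0.025 and imprinted genes at 0.027. With replicate 1 left out TGF-beta was at −0.045. With full-treatment replicate 2 left out imprinted genes were at 0.01, BCL2 at −0.045 and TGF-beta at −0.04. Over all fits with 1 pool left out, the highest median was 0.05 for BCL2 and 0.1 for TGF-beta, and the lowest was −0.112 for imprinted genes. The cause was not tested. With 2 arrays a group, array number limits what can be called.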
